A study of Homo sapiens with 12 samples.

Results

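A set of 6 interferon-inducible genes of the cell's response to viral RNA was followed over 12 expression arrays: the RNA sensors IFIH1 and RIGI, the helicase DDX60, the ligases HERC5 and HERC6, and SAMD9. They are 6 of the 14884 genes tested, and each was represented by its only named probe set, so that no choice between probe sets was needed. The genes were chosen by these arrays' own levels, since earlier results of the same data, in which several of them differed between the labelled groups, were in view. Their levels and differences are therefore given as a description, and the size of a difference is no support for the choice. The RNA was from Ishikawa, a cell line of a human endometrial adenocarcinoma, in 4 labelled groups of 3 arrays: shMOF ERα(+), control ERα(+), shMOF ERα(-) and control ERα(-). MOF, the product of KAT8, acetylates histones, and shMOF names cells with a short hairpin RNA against it. ESR1 encodes ERα, an oestrogen receptor. The sources used here do not give what separates ERα(+) from ERα(-), what the control cells carried, whether a group was 1 clone, or the origin of the replicates. A p-value therefore reflects array-to-array spread, possibly technical.

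RIGI, known as RIG-I (older symbol DDX58), and IFIH1, known as MDA5, are cytosolic helicases that recognise viral RNA. RIGI prefers short double-stranded RNA with a triphosphate end and IFIH1 long double-stranded RNA. Both signal through the mitochondrial adaptor MAVS to induce type I interferon. Secreted interferon then acts on its receptor and induces many genes that carry the interferon-stimulated response element, among them the sensors themselves. DDX60 is a related helicase linked to antiviral signalling. HERC5 is the main ligase that attaches the ubiquitin-like protein ISG15 to targets in human cells, whereas HERC6 has this role in mouse. SAMD9 is a cytoplasmic restriction factor of poxviruses. Many epithelial cells keep low levels of these genes without infection.

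The genes lie on 4 chromosomes in GRCh38.p14: IFIH1 at chr2:162267074-162318684, RIGI at chr9:32455302-32526196, DDX60 at chr4:168216294-168325979 and SAMD9 at chr7:93099518-93117979. HERC6 (chr4:88378852-88443097) and HERC5 (chr4:88457119-88506163) are neighbours, 14021 bases apart with 0 protein-coding genes between them. SAMD9 is 12.1 kb from its relative SAMD9L and DDX60 30.8 kb from DDX60L, again with 0 protein-coding genes between. The sources used here do not place the probe sets within the genes. All 6 promoters are shown because most of the genes varied together over the arrays, from 250 bases before to 50 bases after the gene start, in the direction of the gene, as RefSeq gives them for GRCh38.p14, and all 6 were matched by symbol. They lie at chr2:162318635-162318934 on the minus strand for IFIH1, chr9:32526147-32526446 on the minus strand for RIGI, chr4:168318703-168319002 on the minus strand for DDX60, chr4:88456869-88457168 on the plus strand for HERC5, chr4:88378602-88378901 on the plus strand for HERC6 and chr7:93117930-93118229 on the minus strand for SAMD9. The window of DDX60 is inside the gene's annotated span, since the table's start is not its outermost one. Capitals mark matches to the core of the interferon-stimulated response element, spelled GAAA, any 2 bases and GAAA, on either strand.
IFIH1: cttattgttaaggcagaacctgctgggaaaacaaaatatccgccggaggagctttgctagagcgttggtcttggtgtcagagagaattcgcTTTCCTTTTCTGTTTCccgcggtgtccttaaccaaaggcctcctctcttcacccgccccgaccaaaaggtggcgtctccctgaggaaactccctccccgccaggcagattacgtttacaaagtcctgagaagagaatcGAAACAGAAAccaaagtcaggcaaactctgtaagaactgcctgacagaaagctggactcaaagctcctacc
RIGI: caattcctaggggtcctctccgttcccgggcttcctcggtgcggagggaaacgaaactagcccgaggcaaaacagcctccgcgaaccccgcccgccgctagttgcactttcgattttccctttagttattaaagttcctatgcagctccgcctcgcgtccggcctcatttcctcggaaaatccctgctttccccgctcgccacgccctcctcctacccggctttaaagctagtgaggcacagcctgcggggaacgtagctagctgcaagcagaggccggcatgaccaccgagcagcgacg
DDX60: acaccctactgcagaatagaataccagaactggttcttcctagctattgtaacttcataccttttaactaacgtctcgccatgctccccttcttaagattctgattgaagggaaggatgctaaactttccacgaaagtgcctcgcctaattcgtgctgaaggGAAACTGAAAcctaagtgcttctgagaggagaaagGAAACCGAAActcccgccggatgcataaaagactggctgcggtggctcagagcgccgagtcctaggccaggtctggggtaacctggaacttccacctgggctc
HERC5: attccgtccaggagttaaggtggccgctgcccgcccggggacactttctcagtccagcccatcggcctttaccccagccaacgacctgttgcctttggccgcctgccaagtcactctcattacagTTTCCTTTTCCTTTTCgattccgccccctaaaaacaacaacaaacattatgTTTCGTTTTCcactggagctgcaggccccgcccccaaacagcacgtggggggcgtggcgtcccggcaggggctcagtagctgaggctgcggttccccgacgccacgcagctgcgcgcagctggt
HERC6: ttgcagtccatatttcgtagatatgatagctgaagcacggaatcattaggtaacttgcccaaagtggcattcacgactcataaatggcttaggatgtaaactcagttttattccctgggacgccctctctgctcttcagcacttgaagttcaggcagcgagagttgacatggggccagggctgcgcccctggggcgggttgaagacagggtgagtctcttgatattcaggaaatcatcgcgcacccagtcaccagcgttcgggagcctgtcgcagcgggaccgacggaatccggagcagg
SAMD9: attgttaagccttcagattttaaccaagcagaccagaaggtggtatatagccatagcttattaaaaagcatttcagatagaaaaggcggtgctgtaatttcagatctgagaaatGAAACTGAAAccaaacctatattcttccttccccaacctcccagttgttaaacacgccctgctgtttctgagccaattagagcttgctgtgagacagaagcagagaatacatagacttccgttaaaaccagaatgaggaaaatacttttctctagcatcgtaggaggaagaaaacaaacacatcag
The core was found in 4 of the 6 promoters and in 3.57% of the 35116 promoters of this length. Windows with 2 or more matches numbered 3 of the 6, against 0.259% of all. IFIH1 held 3, which began 159, 153 and 21 bases before the start, and the first and second of them overlap. HERC5 held 3, at 125, 119 and 74 bases before the start, of which the first and second overlap. DDX60 held 2, at 88 and 53 bases before, and SAMD9 1, at 136. The windows of RIGI and HERC6 held none with these letters. A gamma-activated site, TTCNNNGAA, which reads the same on both strands, stood in 1 of the 6 windows, that of DDX60 at 124 bases before the start, and in 7.66% of all. It did not overlap the core there. A match is a string of letters and was not tested for binding.

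Before the values, the labels were set against the genes they name. KAT8, the target of the hairpin, read 6.66, 6.66 and 7.02 in shMOF ERα(+) against 6.80, 6.60 and 6.81 in control ERα(+), and 6.78, 6.76 and 6.72 in shMOF ERα(-), against 6.76, 6.87 and 6.68 in control ERα(-). Its values overlapped in both conditions, so shMOF and control below are the labels of the arrays. ESR1 averaged 4.27 ± 0.0068 in shMOF ERα(+) and 4.42 ± 0.092 in shMOF ERα(-), and 4.46 ± 0.17 in control ERα(+) and 4.28 ± 0.15 in control ERα(-) (SD, n = 3 each), so that it did not follow the ERα label either. In shMOF arrays it was lower in ERα(+) without overlap, by a log2 difference of -0.15 ± 0.12 (SE). In control arrays the difference was 0.18 ± 0.12, with overlap. The mean of ESR1 was at the 27.1st percentile of the genes tested, so RMA may hide a difference there. The median of all probe sets was 4.53 to 4.59 (log2), depending on the array. Levels throughout are RMA log2 signals. Of the epithelial markers, 7 of 7 measured ones had a mean above the median of all probe sets, against 2 of 5 immune, 0 of 3 endothelial and 0 of 2 fibroblast markers and 0 of 1 for plasmacytoid dendritic cells. The 5 immune markers had array means between 4.43 and 4.47 in shMOF ERα(+), against 4.58 to 4.87 in control ERα(+), and of 4.46 to 4.79 in shMOF ERα(-), against 4.41 to 4.66 in control ERα(-). The 7 epithelial markers had 8.53 to 8.82 in shMOF ERα(+), against 8.81 to 9.08 in control ERα(+), and 8.67 to 9.03 in shMOF ERα(-), against 8.63 to 8.76 in control ERα(-). The part of either list in the results below was not tested. In bulk RNA, fewer cells with a transcript and less transcript per cell cannot be told apart.

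IFIH1, the sensor of long double-stranded RNA, had log2 signals of 5.27, 6.12 and 5.89 in shMOF ERα(+) (replicates 1, 2 and 3), against 4.74, 4.40 and 4.57 in control ERα(+). In ERα(-) it had 4.66, 5.50 and 4.76 in shMOF arrays and 5.82, 5.60 and 5.41 in control arrays. The 3 shMOF ERα(+) and 3 control ERα(-) arrays were high, the 3 control ERα(+) arrays were low, and the shMOF ERα(-) arrays were split, with replicate 2 high and the others low. The shMOF minus control difference was 1.19 ± 0.24 (SE) on the log2 scale in ERα(+), a fold of 2.28 with a 95% interval of the log2 difference from 0.68 to 1.70, and -0.64 ± 0.24 in ERα(-). Control ERα(+) replicates 2 and 3 lay under the median of all probe sets, so RMA may understate the difference in ERα(+).

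RIGI, the sensor of RNA with a triphosphate end, had 7.21, 8.17 and 7.91 in shMOF ERα(+) and 6.56, 7.11 and 6.61 in control ERα(+). In ERα(-) it had 6.92, 7.52 and 7.12 in shMOF arrays and 7.85, 7.58 and 7.66 in control arrays. Here both conditions separated shMOF from control without overlap, in opposite directions, with shMOF ERα(-) replicate 2 again the highest of its group and only just below the lowest control array. The difference was 1.01 ± 0.23 (SE) in ERα(+), a fold of 2.01, and -0.51 ± 0.23 in ERα(-).

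DDX60, the helicase, had 5.56, 6.43 and 6.08 in shMOF ERα(+) and 4.79, 5.22 and 5.02 in control ERα(+). In ERα(-) it had 4.57, 5.75 and 4.84 in shMOF arrays and 5.64, 5.68 and 5.70 in control arrays. The control ERα(-) arrays agreed within an SD of 0.029, the tightest spread among the groups of this gene, while shMOF ERα(-) had the widest, with an SD of 0.62 (n = 3 each). The difference was 1.02 ± 0.26 (SE) in ERα(+), a fold of 2.03, and -0.62 ± 0.26 in ERα(-), where replicate 2 of shMOF lay above all 3 control arrays.

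**Figure D1:**
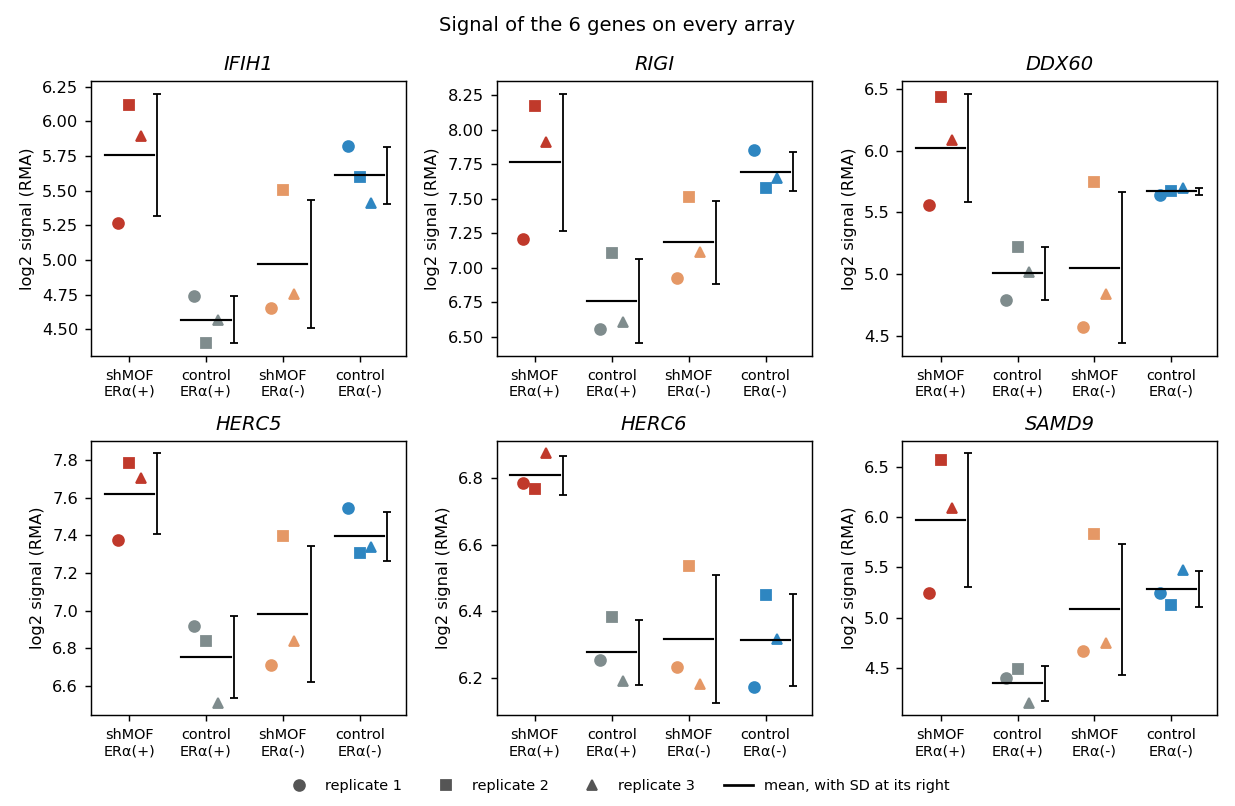
Log2 signal of each of the 6 genes (y axis, RMA values) on all 12 arrays, by labelled group (x axis). Symbols are replicates, horizontal bars are means and vertical bars are SDs (n = 3). In 5 of the genes control ERα(+) is low and shMOF ERα(-) is split, while HERC6 stands apart in shMOF ERα(+) alone, at 6.77 to 6.87.

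HERC5, the ISG15 ligase of human cells, had 7.38, 7.78 and 7.70 in shMOF ERα(+) and 6.92, 6.84 and 6.51 in control ERα(+). In ERα(-) it had 6.71, 7.40 and 6.84 in shMOF arrays and 7.54, 7.31 and 7.34 in control arrays. Its pattern of high and low arrays was that of the sensors, over a narrower range of 1.27 log2 units from the lowest to the highest array. The difference was 0.86 ± 0.18 (SE) in ERα(+), a fold of 1.82, and -0.41 ± 0.18 in ERα(-).

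HERC6, its chromosomal neighbour, had 6.78, 6.77 and 6.87 in shMOF ERα(+) and 6.25, 6.38 and 6.19 in control ERα(+). In ERα(-) it had 6.23, 6.54 and 6.18 in shMOF arrays and 6.17, 6.45 and 6.32 in control arrays. It spanned 0.70 log2 units in all, and the 3 shMOF ERα(+) arrays lay above the other 9. That held for 1 of the 6 genes and for 0.49% of all genes tested. The difference was 0.53 ± 0.13 (SE) in ERα(+), a fold of 1.44, and 0.0031 ± 0.13 in ERα(-).

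SAMD9, the poxvirus restriction factor, had the widest range of the 6, 2.41 log2 units. It had 5.25, 6.57 and 6.09 in shMOF ERα(+) and 4.40, 4.49 and 4.15 in control ERα(+). In ERα(-) it had 4.67, 5.83 and 4.75 in shMOF arrays and 5.25, 5.13 and 5.48 in control arrays. The control ERα(+) arrays were below every other array, and they lay under the median of all probe sets, where RMA values of dim transcripts may understate a difference. The difference was 1.62 ± 0.32 (SE) in ERα(+), a fold of 3.07, and -0.20 ± 0.32 in ERα(-), where shMOF replicate 2 was above all control arrays and the other shMOF arrays below them.

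Group means of IFIH1, RIGI, DDX60, HERC5 and SAMD9 took 1 order: shMOF ERα(+), control ERα(-), shMOF ERα(-) and control ERα(+), from highest to lowest. For IFIH1 the mean was 5.76 ± 0.44 in shMOF ERα(+), against 4.57 ± 0.17 in control ERα(+), and 4.97 ± 0.46 in shMOF ERα(-), against 5.61 ± 0.20 in control ERα(-) (SD, n = 3 each). For SAMD9 it was 5.97 ± 0.67 in shMOF ERα(+), against 4.35 ± 0.17 in control ERα(+), and 5.08 ± 0.65 in shMOF ERα(-), against 5.29 ± 0.18 in control ERα(-). Neighbours in that order mostly overlapped. The arrays of shMOF ERα(+) and control ERα(-), the 2 highest groups, overlapped in all 5 genes. Those of control ERα(-) and shMOF ERα(-) overlapped in 4 of the 5 and not in RIGI, and those of shMOF ERα(-) and control ERα(+) in 4 and not in SAMD9. HERC6 had a mean of 6.81 ± 0.058 in shMOF ERα(+), apart from the 6.28 ± 0.098 of control ERα(+) and, in ERα(-), the 6.32 ± 0.19 of shMOF and 6.31 ± 0.14 of control arrays, which overlapped with one another.

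Between shMOF and control arrays in ERα(+), which asks what the hairpin's label goes with in that condition, all 6 genes were higher in shMOF arrays without overlap, against 12.2% of all genes tested in that direction. All 5 contrasts below bear on levels that led to the choice of the genes, so nothing is read from how their counts compare with the background. The median of their log2 differences was 1.01, against -0.04 over all genes. By size of difference SAMD9 ranked 2nd from the top of the 14884 genes, IFIH1 7th, DDX60 19th, RIGI 22nd, HERC5 62nd and HERC6 628th. Limma's fit over all genes called 0% of them and 0 of the 6 after Benjamini-Hochberg adjustment, with adjusted p between 0.155 and 0.223 for the 6 and an unadjusted limma p below 0.05 for 6 of 6, against 10.2% of all genes on the higher side. Without shMOF ERα(-) replicate 2, which is in neither group but enters the estimate of the spread, limma called 30 genes, among them IFIH1, HERC5 and SAMD9. With array quality weights, which give less weight to arrays that scatter more, limma called 1629 genes, all 6 among them. Control ERα(+) replicate 1 then had a weight of 3.7, against 0.5 and 0.45 for replicates 2 and 3. The weighted mean of control ERα(+) thus rested largely on that 1 array.

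Between shMOF and control arrays in ERα(-), 5 of the 6 differences were below 0 and that of HERC6 was at 0.0031. The median was -0.46, against -0.0026 over all genes. Groups did not overlap, with shMOF lower, for 1 of the 6, RIGI, against 4.66% of all genes. Without shMOF ERα(-) replicate 2 the number was 5, against 16.1% of all genes for these smaller groups, and the median was -0.65. Without control ERα(-) replicate 3 the number was 2, against 8.73% of all genes. Limma called 0% of all genes and 0 of the 6 (adjusted p from 0.953 to 0.999), with an unadjusted p below 0.05 for 4 of them, against 2.68% of all genes on the lower side. The difference of SAMD9 was the least settled of the 5, with a 95% interval from -0.88 to 0.48, and without shMOF ERα(-) replicate 2 it was -0.58, while without shMOF ERα(-) replicate 1 it was 0.0068.

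Between ERα(+) and ERα(-) in control arrays, which asks what the condition goes with when the label is control, 6 of the 6 differences were below 0. The log2 difference was -1.04 ± 0.24 (SE) for IFIH1, -0.94 ± 0.23 for RIGI, -0.94 ± 0.32 for SAMD9, -0.67 ± 0.26 for DDX60 and -0.64 ± 0.18 for HERC5. HERC6 was at -0.04 ± 0.13. Groups did not overlap for 5 of the 6, with ERα(+) lower, against 8.92% of all genes. Limma called 0% of all genes and 0 of the 6 (adjusted p from 0.333 to 0.920), with an unadjusted p below 0.05 for 5 of them, against 6.38% of all genes on the lower side. These arrays are the same control ERα(+) arrays that stand in the comparison with shMOF ERα(+), so the low values there enter both. Each of the 4 group pairs shares its groups with others, and the values are given side by side for that reason. In 5 of the 6 genes the control ERα(+) arrays lay below both the control ERα(-) and the shMOF ERα(+) arrays without overlap, as in 5.13% of all genes.

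Between ERα(+) and ERα(-) in shMOF arrays, 6 of the 6 differences were above 0. They ran from 0.49 ± 0.13 (SE) for HERC6 and 0.58 ± 0.23 for RIGI to 0.89 ± 0.32 for SAMD9 and 0.97 ± 0.26 for DDX60. Groups were apart in 1 of the 6, HERC6, against 3.8% of all genes with ERα(+) higher, since shMOF ERα(-) replicate 2 reached above shMOF ERα(+) replicate 1 in the 5 other genes. Without shMOF ERα(-) replicate 2 the groups were apart in 6 of 6, against 19.3% of all genes, and without shMOF ERα(+) replicate 1 also in 6 of 6, against 9.94%. Leaving out an array can add to such a count but never lower it. Limma called 0% of all genes and 0 of the 6 (adjusted p = 0.746 for each), with an unadjusted p below 0.05 for 6 of them, against 2.52% of all genes on the higher side. Without shMOF ERα(-) replicate 2 it called 11 genes, DDX60 among them.

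The interaction is the shMOF minus control difference in ERα(+) minus that in ERα(-), and asks whether what goes with shMOF depends on the condition. It was 1.83 ± 0.34 (SE) for IFIH1, 1.82 ± 0.45 for SAMD9, 1.64 ± 0.37 for DDX60, 1.52 ± 0.33 for RIGI, 1.28 ± 0.26 for HERC5 and 0.53 ± 0.18 for HERC6. Limma called 0% of all genes and 0 of the 6 (adjusted p from 0.169 to 0.219), with an unadjusted p below 0.05 for 6 of them, against 9.35% of all genes on the higher side. Without shMOF ERα(-) replicate 2 it called 570 genes, among them IFIH1, RIGI, DDX60, HERC5 and SAMD9. Without shMOF ERα(+) replicate 1 it called 11, with IFIH1 and RIGI among them, and without control ERα(+) replicate 3 it called 1.

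**Figure D2:**
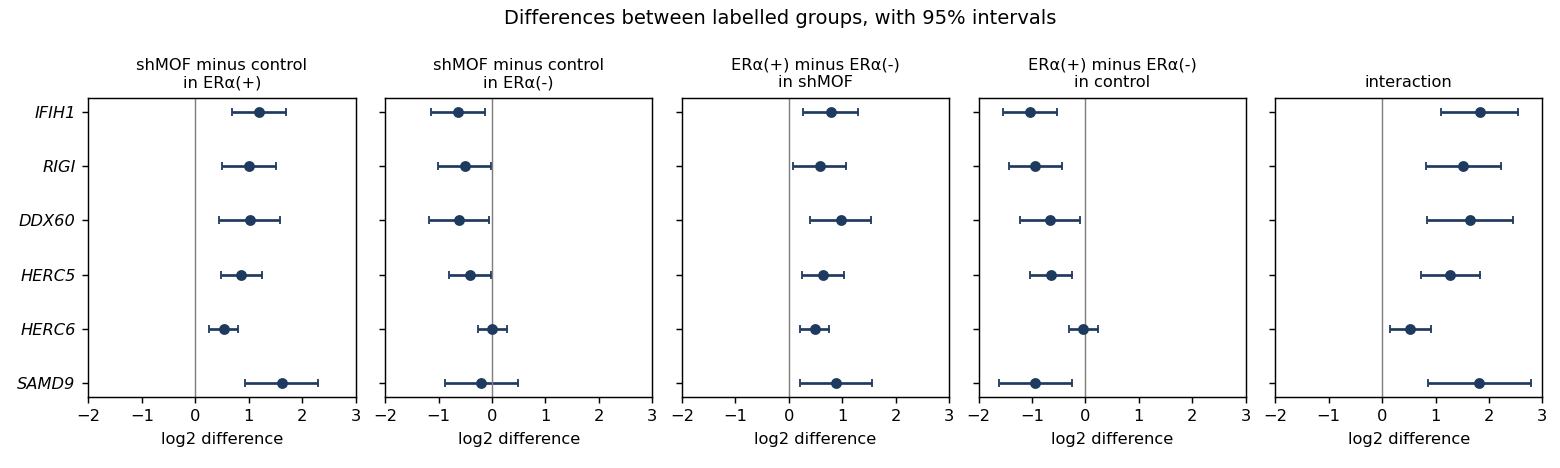
Log2 differences between labelled groups (x axis) for the 6 genes (y axis), from limma's fit over all genes. Points are estimates and bars are 95% intervals. The 5 genes other than HERC6 lie above 0 for shMOF minus control in ERα(+), with 0.86 for HERC5 to 1.62 for SAMD9, and below 0 in ERα(-).

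The genes were next set against one another over the 12 arrays. Among IFIH1, RIGI, DDX60, HERC5 and SAMD9 the 10 pairs had Pearson correlations from 0.897 to 0.956. The 5 pairs with HERC6 had 0.558 to 0.748. Within groups, with each group's mean removed, the 10 pairs had 0.709 to 0.921 and the 5 pairs with HERC6 had 0.346 to 0.611. Arrays of 1 group thus differed from one another in the 5 genes together, as in shMOF ERα(-) replicate 2 and shMOF ERα(+) replicate 1. The correlations rest on 12 arrays in 4 groups, and the genes share the arrays and the normalization.

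Genes outside the 6 were ranked by their Pearson correlation over the 12 arrays with the mean of the 6 centred genes. The 10 most alike were CDON (0.978), IFI44L (0.969), RAB3IP (0.960), ARL6 (0.956), DIAPH2 (0.953), CNTN1 (0.953), IFIT1 (0.953), METAP1 (0.945), CCDC43 (0.944) and EYA4 (0.943). IFI44L and IFIT1, both interferon-induced, are 2 of the 10. The ranking used these same 12 arrays, so a gene high in it shares the pattern of the 6 by construction. The values of such genes are given as a description only. IFIT1, which binds viral RNA, had 6.18, 6.81 and 6.91 in shMOF ERα(+), against 5.48, 5.67 and 5.54 in control ERα(+), and 5.96, 6.43 and 5.81 in shMOF ERα(-), against 6.27, 6.43 and 6.19 in control ERα(-). Its control ERα(+) arrays were the lowest, below all other 9. CDON, a cell surface receptor that binds hedgehog ligands, had a log2 difference between shMOF and control of 0.73 ± 0.15 (SE) in ERα(+) and -0.16 ± 0.15 in ERα(-). A correlation above 0.9 was found for 117 of the 14878 genes outside the 6, which is 0.786%, and for 4 of the 20 measured interferon-induced effectors, which is 20%. The effectors were listed with earlier results of these data known, so the 2 shares are a description only.

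This pattern went along with the main axis of variation of all genes. The first principal component of the 12 arrays held 36.8% of the variance. Its scores were 4.40, 29.81 and 9.85 in shMOF ERα(+), against -13.3, -3.60 and -32.94 in control ERα(+), and -22.28, 18.04 and -9.68 in shMOF ERα(-), against 4.22, 3.58 and 11.9 in control ERα(-). The 7 arrays above 0 are the 7 on which the mean of the 6 centred genes was above 0. The correlation with the score was 0.913 for SAMD9, 0.912 for HERC5, 0.886 for DDX60, 0.874 for RIGI, 0.827 for IFIH1 and 0.666 for HERC6, and 38.4% of all genes had one above 0.6 in size. With the score as a covariate the medians of the 6 were 0.43 for shMOF minus control in ERα(+), -0.28 for the same in ERα(-), 0.37 for ERα(+) minus ERα(-) in shMOF arrays, -0.29 for the same in control arrays and 0.67 for the interaction. All 5 kept their direction and were smaller than without the covariate. For shMOF minus control in ERα(+) the smallest limma adjusted p of the 6 was then 0.999. The component was computed from all genes, the 6 included, and its scores separated these 2 groups without overlap. As a covariate it was bound to take up part of their difference. Nothing is therefore read from the smaller medians or from that adjusted p. What the component stands for was not tested.

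**Figure D3:**
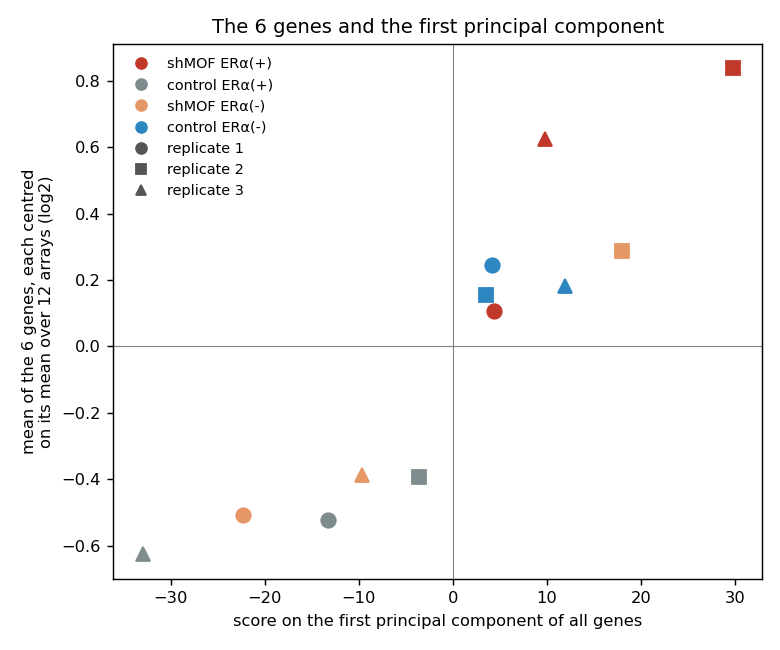
Mean of the 6 genes, each centred on its mean over the 12 arrays (y axis, log2 units), against the score of each array on the first principal component of all genes (x axis). Colours are groups and symbols are replicates. The 5 arrays with a score below 0 all have a mean of the 6 genes below 0.

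The closest relatives of the genes had smaller median differences in all 5 comparisons. The 6 genes were chosen by their levels on these arrays and the relatives by family, so nothing is read from that gap. Of the 7 relatives measured, limma called 0 in any comparison, as for the 6 genes. In ERα(+) their median difference between shMOF and control was -0.0018, with 3 of 7 above 0 and 1 higher in shMOF without overlap, against 12.2% of all genes. In ERα(-) the median was -0.18, with 5 of 7 below 0 and 2 lower in shMOF without overlap, against 4.66% of all genes. HERC2 went the other way there, higher in shMOF without overlap. Between ERα(+) and ERα(-) the median was 0.08 in shMOF arrays, with 5 of 7 above 0, and -0.17 in control arrays, with 5 of 7 below 0. The interaction had a median of 0.25, with 5 of 7 above 0, against -0.03 over all genes, so that in these 4 comparisons the median had the sign of that of the 6 genes. DHX58, the third RIG-I-like receptor, known as LGP2, had 4.94, 4.96 and 5.07 in shMOF ERα(+), against 5.13, 5.02 and 4.98 in control ERα(+), a difference of -0.06 ± 0.15 (SE). SAMD9L, next to SAMD9, had 4.08, 4.03 and 4.09 in shMOF ERα(+), against 4.26, 3.99 and 4.25 in control ERα(+), a difference of -0.10 ± 0.12. Both sets of arrays overlapped. In ERα(-), DHX58 differed by -0.31 ± 0.15 with overlap, and SAMD9L by -0.18 ± 0.12 with shMOF arrays lower without overlap. DDX60L, next to DDX60, was between 1.95 and 2.50 on all arrays, with a difference of -0.04 ± 0.15. Its mean was at the 3.3rd percentile of the genes tested, so RMA may hide a difference there. The promoter window of DDX60L held 2 matches to the same core, at 80 and 50 bases before the start, and those of SAMD9L, HERC3 and HERC4 held 0.

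The larger HERC proteins are ubiquitin ligases. HERC1, whose difference was 0.41 ± 0.16 (SE), was the relative higher in shMOF ERα(+) without overlap, at 8.05, 8.20 and 8.11, against 7.74, 7.92 and 7.46 in control ERα(+). It was chosen for mention after its values were seen. HERC4 had 7.66, 8.12 and 7.56 in shMOF ERα(+), against 7.39, 7.76 and 6.96 in control ERα(+), which overlapped, with a difference of 0.41 ± 0.20. HERC3 differed by 0.21 ± 0.23 in ERα(+) and by -0.49 ± 0.23 in ERα(-), where control ERα(-) replicate 1 was at 7.78 and the other 11 arrays were at 7.02 or lower. HERC2 had 8.10, 8.02 and 8.11 in shMOF ERα(-), against 7.85, 7.96 and 7.99 in control ERα(-). That was a difference of 0.14 ± 0.10 without overlap, against -0.0018 ± 0.10 in ERα(+).

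**Figure D4:**
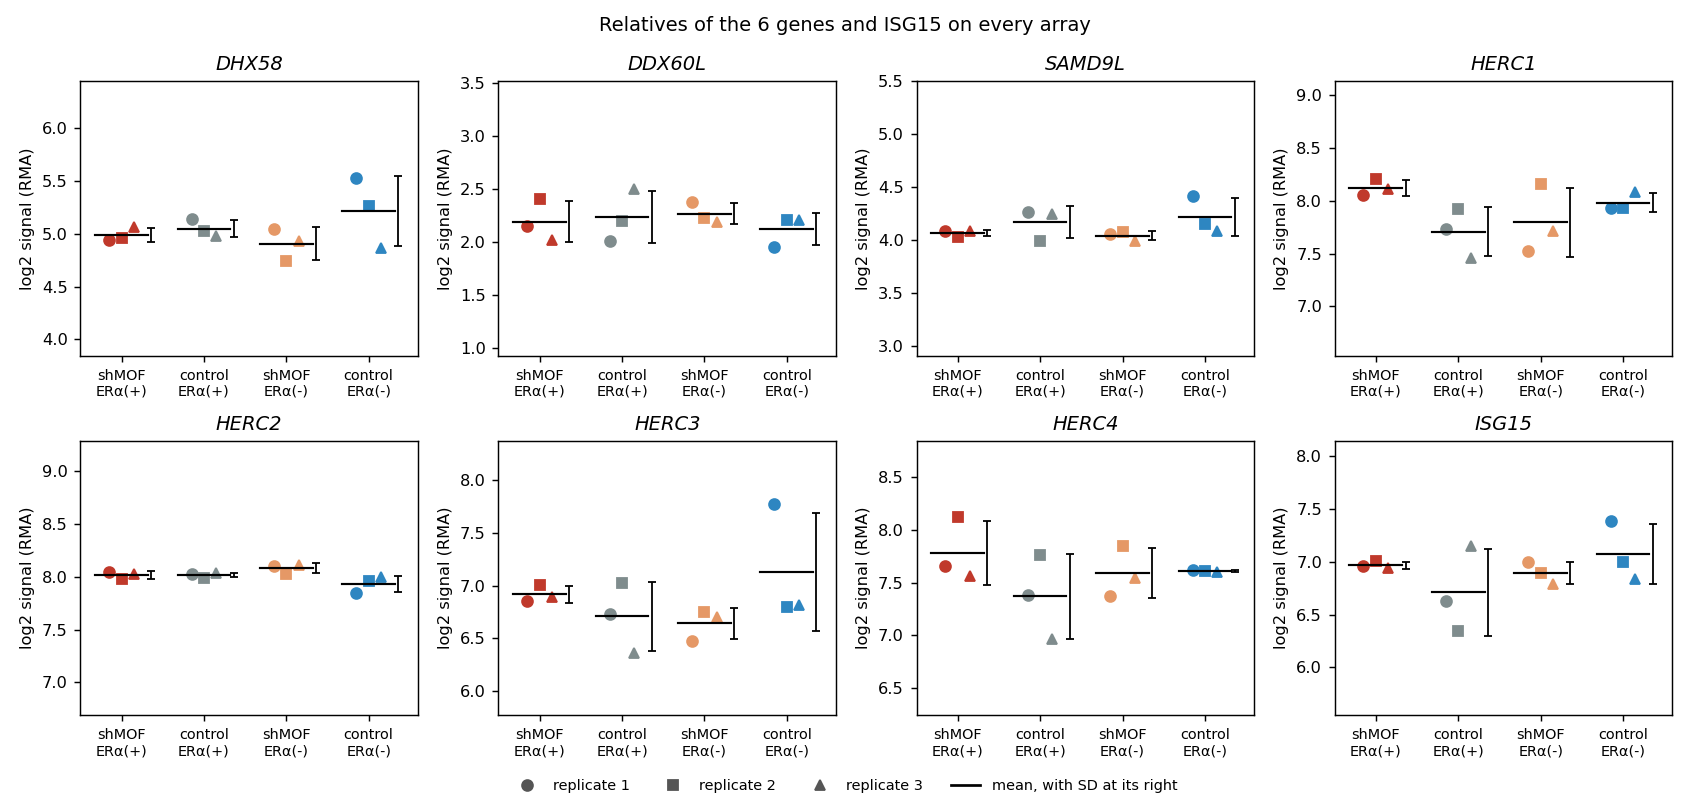
Log2 signal (y axis, the same span in each panel) of the 7 relatives and ISG15 on all 12 arrays, by labelled group (x axis). Symbols, means and SDs are as for the 6 genes. In ERα(+) the shMOF and control arrays overlap in 7 of the 8 panels and not in that of HERC1.

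Downstream of the sensors, MAVS, the adaptor, had 8.50, 8.29 and 8.51 in shMOF ERα(+), against 8.70, 8.57 and 8.85 in control ERα(+), with a difference of -0.27 ± 0.14 (SE) and no overlap. TRIM25, the ligase that modifies RIGI, differed by -0.17 ± 0.12 and IRF3, the factor that MAVS signalling activates, by -0.27 ± 0.13, both lower in shMOF ERα(+) without overlap, against 14.1% of all genes in that direction. IRF7, the interferon-induced partner of IRF3, differed by 0.05 ± 0.15. Of 15 measured genes of the RNA sensing pathway (25 listed), limma called 0 higher and 0 lower in each comparison. Their median in ERα(+) was -0.06, against -0.04 over all genes, with 2 of 15 higher in shMOF without overlap, against 12.2% of all genes, and 5 of 15 lower, against 14.1%. The 2 higher ones, named after their values were seen, were TLR3, an endosomal sensor of double-stranded RNA, at 0.42 ± 0.14 (SE), and EIF2AK2, the kinase PKR that double-stranded RNA activates, at 0.39 ± 0.14. TBK1, the kinase downstream of MAVS, was at 0.53 ± 0.18 with overlap, and was also named after its value was seen. The 10 measured negative regulators of RNA sensing had a median of 0.07 and 0 calls. Ligands, receptors and signal transducers of interferon had 10 measured members of 24 listed, 0 calls and a median of 0.04. IFNB1 was not analysed here.

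Of the ISG15 pathway in which HERC5 acts, 5 of 7 listed genes were measured, with 0 calls and a median of 0.06 in ERα(+). ISG15 itself, the modifier, had 6.96, 7.0 and 6.94 in shMOF ERα(+), against 6.63, 6.35 and 7.15 in control ERα(+). Its groups overlapped through control ERα(+) replicate 3, and the difference was 0.26 ± 0.19 (SE). USP18, which removes ISG15 from proteins, differed by 0.06 ± 0.14. The 20 measured interferon-induced effectors had a median of 0.25 in ERα(+), against -0.04 over all genes, with 9 of 20 higher in shMOF without overlap against 12.2% of all genes, and of -0.15 in ERα(-), with 1 of 20 lower without overlap against 4.66% of all genes. Between ERα(+) and ERα(-) in control arrays their median was -0.19, with 8 of 20 lower without overlap against 8.92% of all genes, and limma called 0 of them in each comparison. The list of effectors was drawn up with earlier results of these data known. Nothing is therefore read from how its counts compare with the background.

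The promoter core was then read across the table. Of the tested genes outside the 6 with a promoter in the table, 414 held the response element core and 10329 did not. In ERα(+), 17.6% of the genes with the core were higher in shMOF without overlap and 12.8% lower, against 13.4% higher and 15.1% lower among those without. Between ERα(+) and ERα(-) in control arrays, 13.8% of those with the core were lower without overlap and 9.18% higher, against 9.32% lower and 11.0% higher without it. Median differences were -0.0088 with and -0.04 without the core between shMOF and control in ERα(+). No test was run on these shares.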

How the data were processed

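Deposited log2 values of 12 arrays, with 53617 probe sets and 0 missing values, were used as the authors made them. Per the submitters' processing notes, RMA in Affymetrix Expression Console 1.4.1 gave them. That procedure subtracts background, gives all arrays 1 distribution and combines probes, and it may understate differences of dim transcripts. The sources used here name no build. The platform annotation named 16098 probe sets with 1 symbol, 0 with several, and left 37519 unnamed here. The probe set with the highest mean stood for a gene, which left 14884 genes. In R 4.3.3, the lmFit and eBayes functions of limma 3.58.1 fitted the 4 group means (8 residual degrees of freedom). Two-sided tests were called at a Benjamini-Hochberg adjusted p below 0.05. With 3 arrays a group, the smallest exact permutation p would be 0.1. The fit was tested on simulated data. Their noise was independent between genes, unlike that of these arrays. That test therefore does not show how the calls behave under variation that genes share. The number of arrays limits the precision. Genes, lists and alternatives were chosen with earlier results of these data known. Named are the 6 genes, KAT8, ESR1, the 10 genes most correlated with the mean of the 6, and fixed pathway genes. Same-numbered replicates did not deviate together throughout (18 pairs, correlations from -0.179 to 0.453, 5 above 0.1), so they were not treated as pairs.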

Additional observations from a re-analysis of the deposited data

Results flagged for a closer look

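In IFIH1, RIGI and HERC5 every shMOF array lay above the control mean in ERα(+) and below it in ERα(-), except that HERC5 on shMOF ERα(-) replicate 2 was level with the control mean, at 7.40, to the precision printed. In the same genes and in DDX60 and SAMD9, every ERα(+) array lay above the mean of ERα(-) in shMOF arrays and below it in control arrays. The interaction was 1.83 for IFIH1, 1.52 for RIGI, 1.28 for HERC5, 1.64 for DDX60 and 1.82 for SAMD9 on the log2 scale. Limma called 0 of them over all genes (adjusted p from 0.169 to 0.207), and the opposite direction array by array was not tested beyond that fit.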

How the results depend on the processing

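Over the alternatives, 674 of 684 values of the 6 genes kept their direction and 660 moved by less than the SD within groups. Many of these values could not move. Each gene had 1 probe set and the fit gave each group its own mean. The mean over probe sets, the dim gene filter, the mean-variance trend, the 2 groups alone and the replicate block thus left differences unchanged. So did leaving out an array of a group outside the pair compared. Neither count is therefore read as a measure of stability. The 10 that turned were differences close to 0, of HERC6 (4 each for shMOF in ERα(-) and for ERα in control arrays) and SAMD9 (2, for shMOF in ERα(-)). Array quality weights, which ran from 0.36 to 8.86, gave 1629, 645, 1918, 217 and 3258 calls over all genes for shMOF in ERα(+), shMOF in ERα(-), ERα in shMOF arrays, ERα in control arrays and the interaction, and called 6, 3, 6, 3 and 6 of the 6 genes in that order. In shMOF ERα(-), replicate 3 had a weight of 8.86, against 0.59 and 0.36 for replicates 1 and 2. In control ERα(+), replicate 1 had 3.7, against 0.5 and 0.45 for replicates 2 and 3. The weighted means of these 2 groups thus rested largely on 1 array each, and every comparison used at least 1 of these groups. The cause of the higher counts was not tested. Leaving out 1 array gave 0 to 30, 0 to 5, 0 to 11, 0 to 4 and 0 to 570 calls in the same order. Only the 2 groups compared gave 9 calls for ERα in control arrays, and the code letter as a random block 5 for the interaction. The letter is that of a code in each array's labels, and its meaning is not stated. Only letter B spans 2 groups, control ERα(-) and shMOF ERα(-). The block therefore cannot tell the letters apart from the groups and is no check on a batch. The fit with the replicate number as a block gave 2 calls for the interaction and 0 elsewhere, and 0 of the 6 genes. Without control ERα(+) replicate 3 and shMOF ERα(+) replicate 2, chosen after seeing the data as the ends of the first principal component, 1 gene was called for shMOF in ERα(+) and 1 for the interaction, and the median of the 6 was 0.77 for shMOF in ERα(+) and 1.33 for the interaction. The component as a covariate took the medians to 0.43 for shMOF in ERα(+), 0.37 for ERα in shMOF arrays, -0.29 for ERα in control arrays and 0.67 for the interaction. With arrays shifted to 1 median, 2 genes were apart for ERα in shMOF arrays. Leaving out 1 array gave medians from 0.81 to 1.27 for shMOF in ERα(+) and from -0.65 to -0.33 in ERα(-), and 1 to 5 genes apart for shMOF in ERα(-) and 1 to 6 for ERα in shMOF arrays, where the lower ends are fixed, since leaving out an array cannot make groups overlap. The mean over probe sets, a dim gene filter, repeated quantile normalization and a mean-variance trend were also run.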
